A study of Drosophila melanogaster with 10 samples.

Results

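A group of 10 genes of excision repair, photolyase and alkyl reversal and translesion synthesis was followed in Drosophila melanogaster embryos: PolZ1, Xpc, hay, Xpac, mus201, phr, phr6-4, Ogg1, Rrp1 and agt. They were chosen by name, and each was read from the probe set that the platform annotation assigns to it alone. Of the 10 genes, 7 have such a probe set here, against 10843 genes in all. Of these 7 genes, 6 passed a filter on dim probe sets (mean signal above 53.36), against 6848 genes in all. agt fell below that filter with a mean signal of 47.8, and Xpac lay just above it at 54.9. mus201, phr and phr6-4 were not analysed here.

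Cells meet damaged bases in several ways. In nucleotide excision repair, a damage sensor such as Xpc hands a distorting lesion to the TFIIH helicase complex, which holds hay, and to Xpac, after which nucleases including mus201 cut out the damaged strand. In base excision repair a glycosylase such as Ogg1 removes a single altered base, and an abasic-site endonuclease such as Rrp1 cuts the strand there. Photolyases such as phr and phr6-4 reverse ultraviolet photoproducts directly, and agt takes alkyl groups off guanine. Where a lesion is still present at replication, translesion polymerases such as polymerase zeta, whose catalytic subunit is PolZ1, copy past it. Ionizing radiation makes oxidised bases, abasic sites and strand breaks, and Dmp53, the fly p53 protein, is a transcription factor that acts in the response to it.

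The study asked which transcripts change with ionizing radiation and which of these changes need Dmp53. Whole embryos were taken within 2.5 h of laying, aged for 2.5 h, given 40 Gy of gamma radiation or a mock treatment (0 Gy) and left for 1.5 h before RNA was made. Each of the 10 arrays was a single-colour Affymetrix array of 1 embryo collection. Wild-type (WT) embryos were yw (1 control and 1 irradiated array) or w1118 (2 and 2), and the mutant embryos were Dmp53NS (2 and 2), which are used here as 5 sets of a control and an irradiated array. The genetic background of the Dmp53NS strain, and so its match to yw or w1118, is not given in the labels. The small number of arrays limits the precision of every value below.

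Arrays were hybridized on 3 days. The yw set was alone on day 1, with its own chip lot and fluidics protocol, and days 2 and 3 each held 1 w1118 set and 1 mutant set. All arrays carry the same trimmed mean (250.04), and their median signal was 63.3 to 107.8 in arbitrary units. Fewer probe sets lay under a signal of 20 in yw (15.97% and 16.85%) than in w1118 and the mutant (23.96% to 29.99%). As a sign of RNA quality, eIF-4a probes at the 3′ end read 12.23 times those at the 5′ end on the irradiated w1118 array of set 2. That ratio was 5.92 on the mutant control array of set 2 and 1.56 to 3.13 elsewhere. The p53 probe set read 243.4, 233.2 and 287.7 on the WT control arrays and 505.4, 498.6 and 260.8 on the irradiated ones. In the mutant it read 193.6 and 125.1 on the control arrays and 212.5 and 103.6 on the irradiated ones. No source here says where its probes lie relative to the mutation, so it does not check the labels. Of 16 detected marker genes of embryos of this age, such as eve and twi, the summed signal was 6975 to 9880 on WT arrays and 3907 to 6322 on mutant arrays.

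PolZ1, the translesion polymerase subunit, had the largest difference with irradiation among these genes, and it was seen in WT embryos. Its signal (probe set 154926_at) on the control arrays was 115.7 in yw and 203.6 and 121.1 in w1118. On the irradiated arrays it was 235.1 in yw and 423.0 and 570.2 in w1118. Every irradiated WT array lay above every WT control array, a separation found for 2.88% of the 8379 probe sets kept, and PolZ1 was the only 1 of the 6 genes to show it. The irradiated signal was 2.03-fold that of the control in the yw set and 2.08-fold and 4.71-fold in the w1118 sets. In Dmp53NS embryos PolZ1 read 187.6 and 157.2 on the control arrays and 199.1 and 111.7 on the irradiated ones. The ratios in the mutant sets were thus 1.06 and 0.71, and both irradiated mutant arrays lay below all 3 irradiated WT arrays, as for 18.1% of probe sets. Group means went from 146.8 ± 49.3 to 409.4 ± 168.0 in WT (SD, n = 3) and from 172.4 ± 21.5 to 155.4 ± 61.8 in the mutant (SD, n = 2).

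Fitted over all probe sets with limma, on the log2(signal + 14.5) scale that understates changes of dim probe sets, the WT change of PolZ1 was 1.35 ± 0.30 log2 (SE), or 2.55-fold. Its 95% interval ran from 0.72 to 1.98 log2, and only 0.286% of probe sets had a WT change as high or higher. The limma p was 0.000227, and after Benjamini-Hochberg adjustment over all probe sets it was 0.0706, so that PolZ1 did not pass the threshold of 0.05. The value depended on which set was used, and the adjusted p on the fit: it ran from 0.0136 to 1.0 over 14 alternatives, 3 of which passed. Without the yw set the change was 1.56 log2 and passed (limma adjusted p = 0.0136), where 0.382% of all probe sets did. Without w1118 set 2, whose irradiated array had the eIF-4a ratio of 12.23, it was 0.97 log2 and did not pass (limma adjusted p = 0.56). The part of RNA quality in the value of that array was not tested, and the ratio of irradiated to control was 2.03 and 2.08 in the sets of days 1 and 2, where the eIF-4a ratio was 1.56 to 2.27. In the mutant the fitted change was -0.18 ± 0.37 log2 (SE), with a 95% interval from -0.96 to 0.59 and a limma adjusted p of 1.0.

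The test of the difference itself, WT minus mutant, gave 1.53 ± 0.48 log2 (SE) for PolZ1, with a 95% interval from 0.53 to 2.53. Its limma p was 0.00446 before and 1.0 after adjustment, so the difference between genotypes did not pass over all probe sets. In that contrast 0.0119% of probe sets passed. With the irradiation response of each day taken separately, which sets the mutant against w1118 alone, the difference was 1.74 log2. Its limma p was 0.00105 before and 0.258 after adjustment, in a fit where 0.0477% of all probe sets passed. That fit has nearly as many terms as arrays, so its spread came almost wholly from the estimate shared over all probe sets. The lower p is therefore no sign of a firmer difference.

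**Figure D1:**
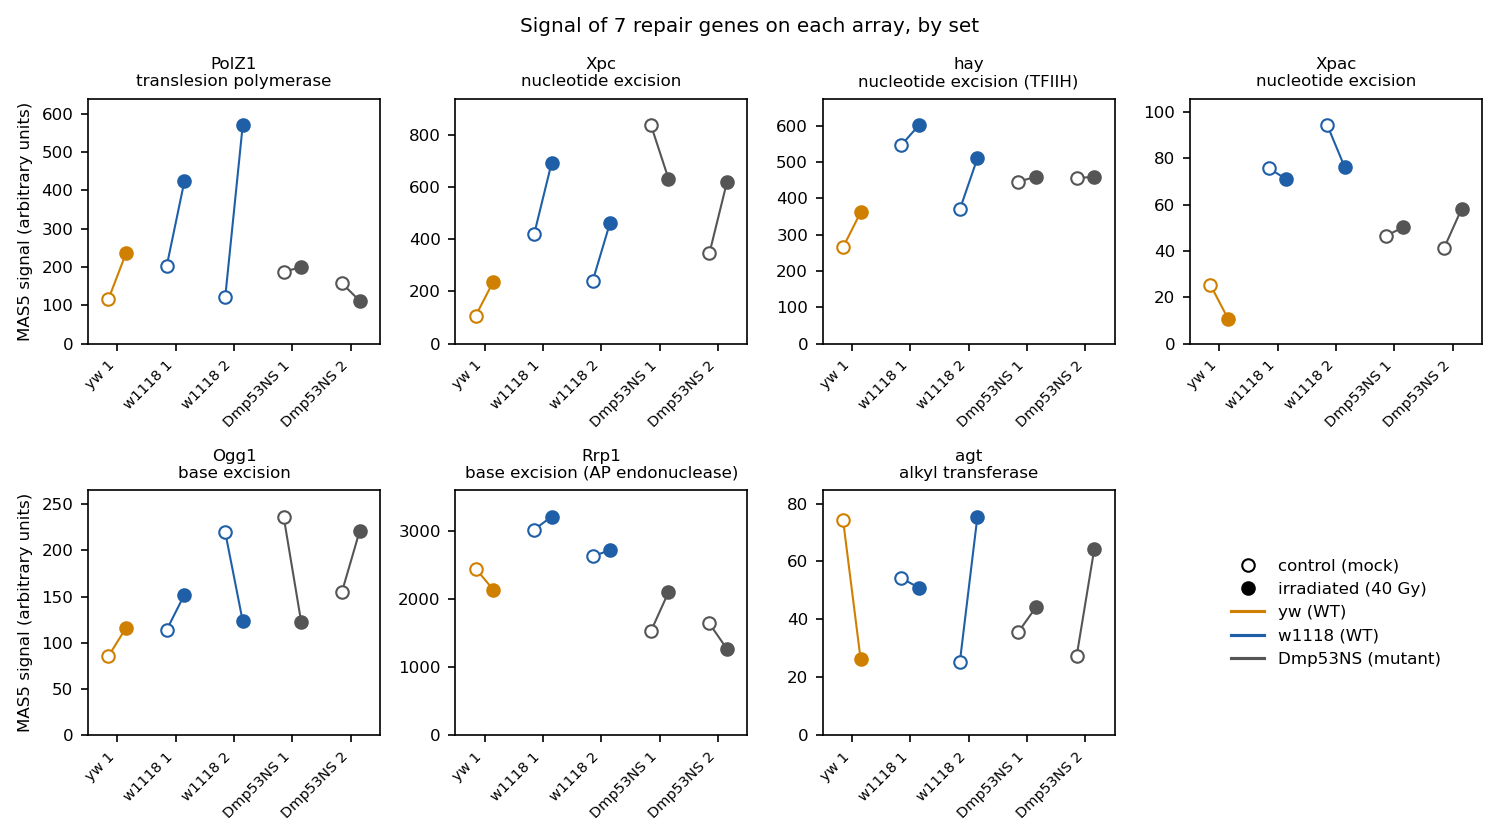
Signal of the 7 genes with a probe set on each of the 10 arrays, in arbitrary units on linear axes that start at 0; open circles are mock-treated controls, filled circles received 40 Gy, and each line joins the 2 arrays of a set (no error bars, 1 array a point). PolZ1 is higher after irradiation in all 3 WT sets (235.1, 423.0 and 570.2) and lies at 111.7 to 199.1 in the mutant, while all 4 mutant arrays lie below all WT arrays for Rrp1.

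Among the nucleotide excision genes, Xpc, the damage sensor, was the one with the highest fitted WT change. Its signal (probe set 141256_at) on the control arrays was 107.0 in yw and 419.0 and 238.0 in w1118, and on the irradiated arrays 236.7, 692.6 and 462.6 in the same order. Each irradiated array was above its own control, by 2.21-fold, 1.65-fold and 1.94-fold, but the groups overlapped because the sets differed more than the treatments did. Mean signal was 254.7 ± 156.7 in control and 464.0 ± 228.0 in irradiated WT embryos (SD, n = 3).

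The fitted WT change of Xpc was 0.89 ± 0.26 log2 (SE), with a 95% interval from 0.34 to 1.44, or 1.85-fold. Its limma p was 0.00286 before and 0.267 after adjustment, and 1.83% of probe sets had a change as high or higher. The mutant sets went in opposite directions. Xpc read 836.3 and 344.9 on the mutant control arrays and 631.2 and 617.1 on the irradiated ones, ratios of 0.75 and 1.79. The fitted mutant change was 0.21 log2, with a 95% interval from -0.46 to 0.88 that holds 0 and overlaps the WT interval. The difference between genotypes was 0.68 ± 0.42 log2 (SE), with a 95% interval from -0.19 to 1.55. It was 0.08 log2 without mutant set 1 and 1.29 log2 without mutant set 2. Its limma p was 0.117 before and 1.0 after adjustment.

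hay, the TFIIH helicase, is called XPB in humans. It read 265.5 (yw), 547.5 and 370.1 (w1118) on the WT control arrays and 361.5, 601.9 and 510.6 on the irradiated ones (probe set 155043_at). It was higher after irradiation in all 3 WT sets, by 0.43, 0.13 and 0.45 log2, with overlapping groups. The 4 mutant arrays lay between 446.1 and 459.5, the narrowest spread of any of these genes within a genotype. The fitted changes were 0.34 ± 0.24 log2 (SE) in WT and 0.02 ± 0.29 log2 in the mutant, with limma adjusted p of 0.778 and 1.0.

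Xpac, which binds and checks the opened lesion, gave a dim signal. It read 25.3 (yw), 75.7 and 94.3 (w1118) on the WT control arrays and 10.8, 70.9 and 76.1 on the irradiated ones (probe set 143515_at). In the mutant it read 46.4 and 41.2 on control arrays and 50.2 and 58.1 on irradiated ones. Xpac was thus lower after irradiation in each WT set and higher in each mutant set. Neither change passed: it was -0.33 ± 0.42 log2 (SE) in WT and 0.23 ± 0.51 in the mutant, with limma adjusted p of 0.917 and 1.0.

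Genes higher after irradiation in all 3 WT sets made up 15.4% of all probe sets kept, and genes lower in all 3 made up 15.9%. PolZ1, Xpc and hay were in the former group and Xpac was in the latter, so that 4 of the 6 genes went one way in all WT sets.

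**Figure D2:**
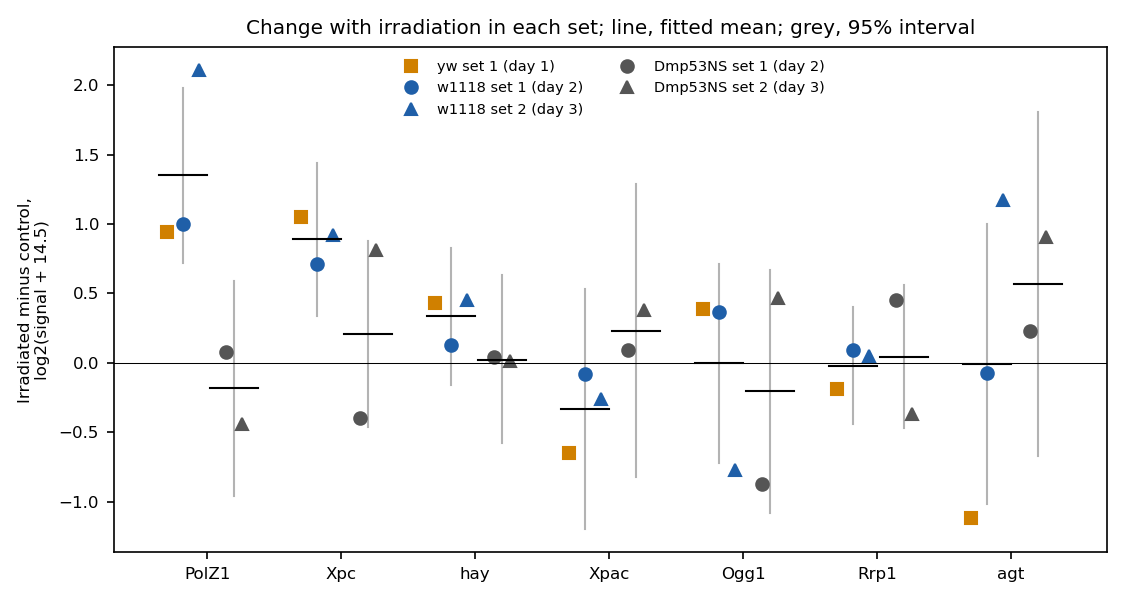
Change with irradiation in each set (irradiated minus control, log2(signal + 14.5)) for the 7 genes; symbols give the set and its hybridization day, black lines the fitted mean of the 3 WT or 2 mutant sets and grey lines its 95% interval (agt from the fit without the filter). The WT intervals of PolZ1 (0.72 to 1.98) and Xpc (0.34 to 1.44) lie above 0, before adjustment for the number of probe sets, and all other intervals in the plot include 0.

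Of the base excision genes, Ogg1, which removes oxidised guanine, showed no common direction. Its signal (probe set 153958_at) was 85.4 (yw), 114.3 and 219.8 (w1118) on WT control arrays and 116.0, 151.9 and 123.3 on the irradiated ones. In the mutant it was 236.7 and 155.5 on control arrays and 122.8 and 220.6 on irradiated ones. Within both genotypes 1 set was lower after irradiation and another higher. In WT the lower set was w1118 set 2, whose irradiated array had the eIF-4a ratio of 12.23. The fitted WT change was 0.00 log2 with a 95% interval from -0.72 to 0.71, so these arrays do not tell apart changes within that interval. The interval is not the limit of what would pass after adjustment. Xpc, at 0.89 log2 with a smaller SE (0.26 against 0.34), did not pass. Without w1118 set 2 the WT change of Ogg1 was 0.38 log2 and did not pass. The part of RNA quality in it was not tested.

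Rrp1, the abasic-site endonuclease, was the brightest of these genes, above 97.3% of probe sets in mean signal, and gave the tightest estimate. It read 2447.8 (yw), 3022.6 and 2629.5 (w1118) on WT control arrays and 2138.4, 3214.0 and 2720.8 on the irradiated ones (probe set 143488_at). The WT means were 2700.0 ± 293.8 and 2691.1 ± 538.4 (SD, n = 3). The fitted WT change was -0.02 ± 0.20 log2 (SE), with a 95% interval from -0.44 to 0.40, and the mutant change was 0.04 log2, with an interval from -0.47 to 0.56.

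agt, the alkyl transferase, was too dim for a firm statement. Its signal (probe set 144029_at) was 74.2 (yw), 54.2 and 25.4 (w1118) on WT control arrays and 26.2, 50.9 and 75.5 on the irradiated ones, the same range in reverse order of sets. In the mutant it was 35.6 and 27.4 on control arrays and 44.1 and 64.2 on irradiated ones. In a fit without the filter its changes were -0.01 ± 0.47 log2 (SE) in WT and 0.57 ± 0.57 log2 in the mutant, with limma adjusted p of 1.0 for both.

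For irradiation in WT embryos, 0 of the 6 genes passed with limma at an adjusted p under 0.05, where 0.239% of all probe sets passed, all of them higher. At an unadjusted p under 0.05, PolZ1 and Xpc were higher, and 4.25% of all probe sets were. The median WT change of the 6 genes was 0.17 log2, against -0.01 log2 over all probe sets. In the mutant 0 of 6 passed, where 0.0% of all probe sets did. There 0 of 6 had an unadjusted p under 0.05, as 1.6% of all probe sets did, and the median change was 0.03 log2 against 0.02 over all. For the difference between genotypes 0 of 6 passed after adjustment, and PolZ1 alone had an unadjusted p under 0.05, as 1.68% of all probe sets did in the same direction.

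**Figure D3:**
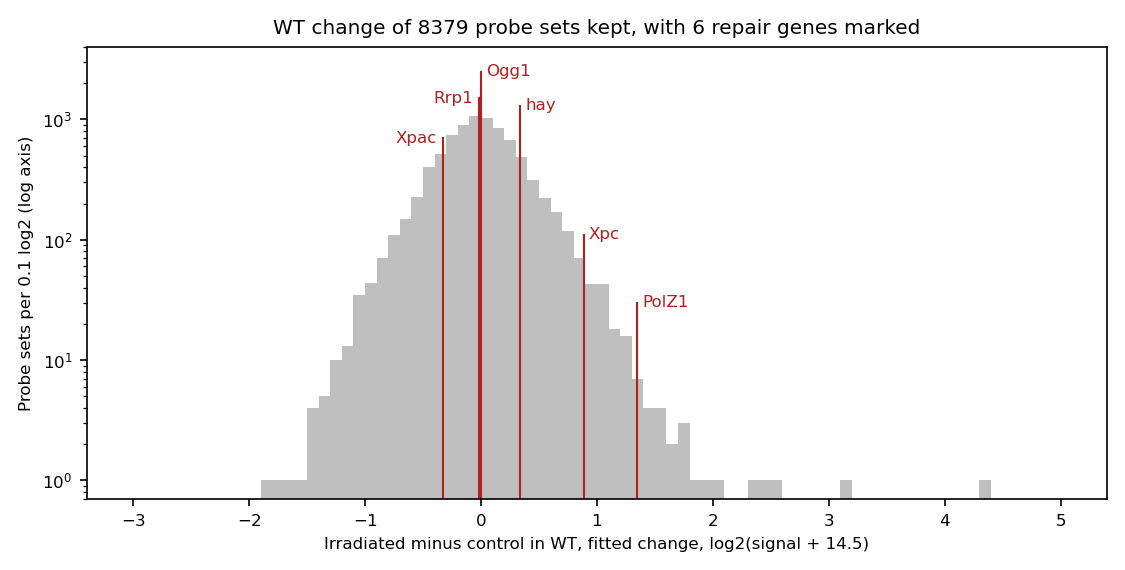
Distribution of the fitted WT change with irradiation (log2(signal + 14.5)) over the 8379 probe sets kept, in bins of 0.1 log2 with a log axis for the number of probe sets; red lines mark the 6 genes kept. PolZ1 (1.35) and Xpc (0.89) lie in the upper tail, with 0.286% and 1.83% of probe sets as high or higher, and the other 4 lie within 0.34 log2 of 0.

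The patterns of PolZ1 and Xpc over the 5 sets were compared with those of 7441 probe sets of named genes, by the root mean square difference of the log2 changes. Nearest to PolZ1 were tud, a germ plasm gene (0.31 log2), rad50, a subunit of the double-strand break complex (0.31 log2), and CG3448 (0.32 log2), against a median of 1.24 log2. The rad50 differences were 1.18 (yw), 0.99 and 1.54 (w1118) log2 in the WT sets and 0.29 and -0.21 in the mutant sets. Nearest to Xpc were sra, a regulator of calcineurin (0.20 log2), CG33298 (0.21 log2) and CG32099 (0.22 log2), against a median of 0.94 log2. The sets share hybridization days and strains, and the likeness is given as a description.

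The genotypes were then compared within each treatment. Rrp1 separated them fully: its signal in the mutant was 1529.5 and 1641.3 on control arrays and 2101.6 and 1268.2 on irradiated ones, all 4 below all 6 WT arrays (2138.4 to 3214.0). Such a separation was found for 6.21% of the probe sets kept. Set against the w1118 array of the same day and treatment, Rrp1 in the mutant was at 0.51 and 0.65 of the signal on day 2 (control and irradiated) and at 0.62 and 0.47 on day 3. The irradiated mutant arrays thus overlapped no WT array, although 2101.6 lay close to the yw value of 2138.4.

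Against the mean of yw and w1118, the difference of Rrp1 was -0.70 ± 0.26 log2 (SE) without irradiation and -0.64 ± 0.26 log2 with it, and neither passed (limma adjusted p = 0.116 and 0.18). The irradiated difference was -1.001 log2 without mutant set 1 and -0.279 log2 without mutant set 2 (limma adjusted p = 0.0934 and 0.687). In a fit with hybridization day as a term, the level of the mutant is set against w1118 of the same day. The yw set still informs the WT effect of irradiation in it. For Rrp1 the values were -0.87 ± 0.21 log2 (95% interval -1.32 to -0.42) without irradiation and -0.81 ± 0.21 log2 (-1.25 to -0.36) with it. Both passed in that fit, with limma adjusted p of 0.0124 and 0.0193. It called 14.3% of all probe sets without irradiation and 13.7% with it. Leaving out the random block of sets in it was chosen after seeing the data, because the correlation within sets was estimated at -0.567. With that block the adjusted p were lower (0.00503 and 0.00831), and 19.0% and 17.4% of all probe sets passed.

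PolZ1 was lower in the mutant on the irradiated arrays. It stood at 0.92 and 1.3 of the w1118 signal on the control arrays of days 2 and 3, and at 0.47 and 0.2 on the irradiated ones. The irradiated w1118 array of day 3 had the eIF-4a ratio of 12.23, whose part in the value of 0.2 was not tested. Against the mean of yw and w1118 the irradiated difference was -1.17 ± 0.38 log2 (limma adjusted p = 0.104), and it ran from -1.62 to -0.79 log2 with 1 set left out. In the fit with day as a term and no random block it was -1.52 ± 0.33 log2, with a 95% interval from -2.22 to -0.82. It passed (limma adjusted p = 0.00753), where 13.7% of all probe sets did, in a fit chosen after seeing the data. The unirradiated difference in that fit was 0.01 log2, with an interval from -0.69 to 0.72.

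Xpc was higher in the mutant than in the mean of yw and w1118 without irradiation, by 1.44 ± 0.40 log2 (95% interval 0.56 to 2.33), and did not pass (limma adjusted p = 0.0549). Without the yw set the difference was 0.74 log2 (limma adjusted p = 0.462). It was 0.82 log2 without mutant set 1 and 2.07 log2 without mutant set 2 (limma adjusted p = 0.374 and 0.0508). Its mutant control arrays (836.3 and 344.9) overlapped the WT control arrays (107.0 to 419.0). In the fit with day as a term and no random block the difference was 0.78 ± 0.28 log2 (limma adjusted p = 0.0749). The level of the yw arrays does not enter that fit, although their change with irradiation does. The difference passed where the random block was kept (limma adjusted p = 0.0396), where 19.0% of all probe sets did. That block used the estimated correlation of -0.567 within sets. It gave Xpc a narrower 95% interval, 0.25 to 1.31 log2 against 0.18 to 1.38 without it. The mutant stood at 2.0 and 1.45 of w1118 on the control arrays and at 0.91 and 1.33 on the irradiated ones. Xpac in the mutant lay below w1118 in all 4 pairs of the same day and treatment, at 0.44 to 0.76 of its signal, as Rrp1 did and as 27.4% of probe sets did.

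In the fit against the mean of yw and w1118, 0 of the 6 genes passed in either treatment, where 6.55% of all probe sets passed without irradiation and 3.71% with it. At an unadjusted limma p under 0.05 there were 2 of 6 in each, against 28.2% and 23.1% of all probe sets. In the fit with day as a term and no random block, 1 of the 6 passed without irradiation (Rrp1) and 2 with it (PolZ1 and Rrp1). Of all probe sets 14.3% and 13.7% passed there.

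Transcripts that the mother loads into the egg moved with genotype as well. Of 12 such genes kept, 7 were higher in the unirradiated mutant with limma at an adjusted p under 0.05 (median 2.18 log2 against -0.20 over all probe sets), and 4 of 12 in the irradiated mutant (median 1.79 log2). The summed signal of the 14 maternal genes with a probe set was 2628 to 5093 on WT arrays and 7585 to 15336 on mutant arrays. The receptor gene tor read 10.3, 49.5 and 7.4 on WT control arrays and 791.9 and 336.3 on mutant ones. In whole embryos, a different mix of stages or cells and a different RNA level per cell cannot be told apart. The part of these transcripts in the genotype differences of Rrp1, PolZ1 and Xpc, and of Rad23 and Tdg below, was not tested.

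**Figure D4:**
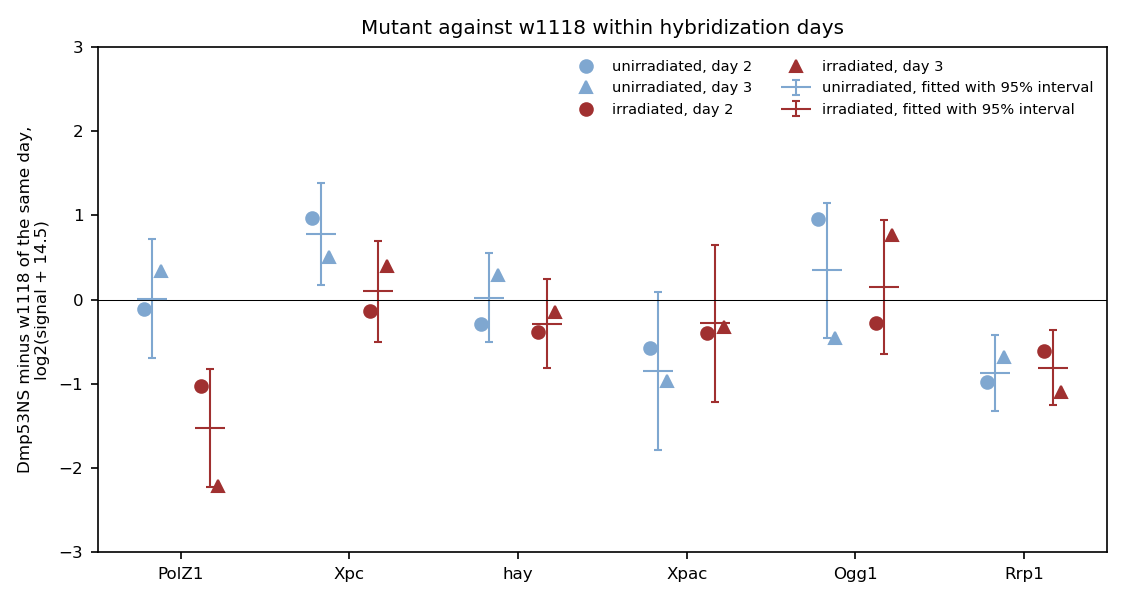
Difference between Dmp53NS and w1118 arrays of the same hybridization day and treatment (log2(signal + 14.5)) for the 6 genes kept. Circles are day 2 and triangles day 3. Bars give the estimate and 95% interval of the limma fit with day as a term and no random block, a setting chosen after seeing the data. The yw set also informs the effect of irradiation in that fit. All 4 Rrp1 points lie below 0 (-0.61 to -1.09), and PolZ1 lies at -1.03 and -2.21 on the irradiated arrays against -0.11 and 0.34 on the control arrays.

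The 2 WT strains were also compared with each other. All 6 genes were lower in yw than in w1118 in the fit, with a median of -0.69 log2 against 0.01 log2 over all probe sets. Xpac was lowest against w1118, at 25.3 and 10.8 in yw and 70.9 to 94.3 in w1118, a difference of -1.56 ± 0.42 log2 (SE) with a limma adjusted p of 0.056. Xpc differed by -1.33 ± 0.41 log2 (limma adjusted p = 0.079) and hay by -0.66 ± 0.28 log2 (limma adjusted p = 0.163). Both yw arrays lay below all 8 other arrays for these 3 genes, as for 12.0% of probe sets. After adjustment 0 of 6 passed, against 5.78% of all probe sets. At an unadjusted limma p under 0.05 there were 3 of 6, all lower, where 26.2% of probe sets were in either direction and 11.9% were lower. Further repair genes, read from lists, did not share 1 direction. In nucleotide excision repair 7 of 11 were higher in yw (median 0.28 log2), and cry was 1.21 log2 higher. The median was -0.14 log2 in base excision repair, -0.47 log2 in translesion synthesis and -0.29 log2 in mismatch repair.

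The yw set was alone on day 1, so strain and day cannot be told apart. The summed signal of 10 adult, ovary or larval genes was 1451 to 1795 in yw and 534 to 779 in w1118 and the mutant, and its part in the strain differences was not tested.

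Over the 10 arrays the highest signal was 7.82 times the lowest for Xpc and 5.1 times for PolZ1. For Xpac no ratio is given, since its lowest value (10.8) lies under the pseudocount of 14.5. For agt, Ogg1, Rrp1 and hay the ratio was 2.97, 2.77, 2.53 and 2.27, below the median of 3.61 over the probe sets kept. The lowest values of Xpac and Xpc were on the yw arrays, and the highest of PolZ1 were on the irradiated w1118 arrays.

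Other genes of the same pathways were read from lists. In nucleotide excision repair, 11 further genes were kept of 13 listed, and 0 passed with irradiation in either genotype. Their median WT change was -0.06 log2. It was lowest for Xpd, the other TFIIH helicase, and highest for Rad23, the partner of Xpc (0.30 log2). Xpd read 72.8 (yw), 71.1 and 127.9 (w1118) on control arrays and 9.2, 65.0 and 51.9 on the irradiated ones. It was lower in all 3 WT sets, by a fitted 1.03 log2 that did not pass (-1.03 ± 0.44 log2, limma adjusted p = 0.538). The irradiated yw value of 9.2 lies under the pseudocount of 14.5, and w1118 set 1 hardly moved (71.1 to 65.0). The size of the fitted change of Xpd is thus uncertain.

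Rad23 was the 1 gene of the 11 in that list to pass in a comparison of genotypes. It did so on the unirradiated arrays, where 6.55% of all probe sets passed. It read 1093.7, 1150.2 and 688.2 on WT control arrays and 3032.1 and 1977.9 on mutant ones, a difference of 1.29 ± 0.29 log2 (SE; limma adjusted p = 0.0296). With irradiation the difference was 0.91 log2 (limma adjusted p = 0.0978). Xpc itself was 1.44 log2 higher in the unirradiated mutant, without passing, and 0.74 log2 higher where the yw set was left out. The median of the list in that comparison was -0.50 log2.

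In base excision and single-strand repair, 6 further genes were kept of 10 listed, with a median WT change of -0.18 log2. It ran from -0.52 for Parg, which removes poly(ADP-ribose), to 0.29 for DNAlig1, a DNA ligase. Of these 6 genes 0 passed in any contrast. Tdg, a thymine glycosylase, was 1.70 and 2.04 log2 higher in the control and irradiated mutant without passing. It read 85.8 (yw), 34.3 and 7.8 (w1118) on WT control arrays and 8.5, 31.7 and 35.2 on the irradiated ones. In the mutant it read 220.0 and 94.5 on control arrays and 139.9 and 150.5 on irradiated ones. The WT values of 7.8 and 8.5 lie under the pseudocount of 14.5, so the size of these differences is uncertain.

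In translesion synthesis and template choice, 7 further genes were kept of 10 listed, with a median WT change of 0.25 log2. It ran from -0.70 for PolI to 0.45 for PolQ, both error-prone polymerases. PolI read 226.2 (yw), 226.7 and 161.7 (w1118) on control arrays and 34.8, 231.6 and 183.7 on the irradiated ones. It was thus lower in the yw set only. With irradiation 0 of 7 passed in either genotype, and the WT change of PolZ1 was above that of each of the 7. Rev1, the partner polymerase of polymerase zeta, was lower in yw than in w1118 (82.5 and 84.5 against 202.5 to 281.1), by 1.38 log2 (-1.38 log2, limma adjusted p = 0.0485).

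In mismatch repair 3 genes were kept of 5 listed, with WT changes from -0.01 log2 (Msh6) to 0.46 log2 (tos, an exonuclease) and 0 passing in any contrast. Of the photolyase family and alkylation genes beside the members, cry, a light receptor related to the photolyases, was the 1 kept of 2 listed. Its WT change was 0.17 log2 and did not pass.

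For comparison, of 8 genes known from the fly's radiation response, 4 passed in irradiated WT embryos (skl, Corp, egr and RnrL), with a median of 1.11 log2 over the list. skl, a cell death gene, had the highest change of these at 3.14 log2, and p53 the lowest at 0.64 log2. The list was chosen with results of these data known. PolZ1, at 1.35 log2, lay above the median of that list and Xpc, at 0.89 log2, below it.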

How the data were processed

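The authors deposited 1 signal intensity for each probe set, on a linear scale. Per the submitters' processing notes it comes from MAS5, whose version and detection calls were not used here. After trimming 2% at both ends, the mean of every array is 250.04. Hybridization days came from the deposited run records. The members, lists and tests were chosen with earlier results of these data known. Of 14010 probe sets, 44 controls were left out; 12442 have 1 symbol, 327 several and 1197 none here. Genome coordinates and sequences were not used here.

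Values were put on a log2(signal + 14.5) scale, the pseudocount being the 20th percentile of all deposited intensity values. A filter at the 40th percentile of mean signal (53.36) kept 8379 probe sets. With limma 3.58.1 in R 4.3.3 (lmFit, eBayes with a trend), irradiation effects were estimated from all 10 arrays, and each set entered as a fixed block because the series calls its sets paired (residual degrees of freedom 3, prior 18.1). Deviations from group means correlated between the arrays of a set at 0.428 to 0.652, which also holds strain and day; the 2 mutant sets share 1 value by construction. The strain contrasts used strain and irradiation as terms, with sets as a random effect (estimated correlation 0.2, residual degrees of freedom 5, prior 5.72). With day as a term and no random block, these were 4 and 12.6. All p-values are two-sided and describe the spread between the deposited arrays, which the series calls biological replicates. Benjamini-Hochberg adjustment covered all 8379 probe sets, with a threshold of 0.05. The text names all members, list genes that passed, each list's highest and lowest WT change and the 3 probe sets nearest to PolZ1 and to Xpc. Tdg and tor were also named, with their values already known. Simulated data with known changes were used to check the fits. Alternatives changed the scaling, pseudocount, filter, variance model, block, arrays, threshold and day.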

Additional observations from a re-analysis of the deposited data

Results flagged for a closer look

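Xpac was picked out because every WT set was lower after irradiation (-0.65, -0.08 and -0.26 log2) and every mutant set higher (0.09 and 0.38 log2). The difference, WT minus mutant, was -0.57 log2 with a 95% interval from -1.93 to 0.80 and did not pass the test of the difference itself. Its limma p was 0.398 before and 1.0 after adjustment. Its signal was dim on every array (10.8 to 94.3).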

How the results depend on the processing

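Under the alternatives 498 values of single genes were recomputed. Of these 457 kept their direction and their side of the threshold, 20 passed where the main value had not, and 21 changed sign, all without passing. No call was lost, since 0 of 6 members passed in the 6 main contrasts.

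For WT irradiation 1 member, PolZ1, passed with a pseudocount of 50 (1.18 log2, limma adjusted p = 0.048), where 0.322% of all probe sets did. It also passed with the stricter filter (limma adjusted p = 0.0231), where 0.609% of all probe sets did, and at an adjusted p under 0.10. Its limma adjusted p was 0.0878 with quantile normalization, 0.109 with a pseudocount of 1, 0.385 with no filter, 0.438 with no variance trend, 0.379 with a random block and 0.178 with the WT arrays alone. Leaving out a replicate set in turn gave 0 to 1 members, and 0.972 to 1.556 log2 for PolZ1 (limma adjusted p from 0.0136 to 0.56). Without the replicate block the adjusted p of PolZ1 was 1, and 0 members passed. The median WT change of the members was 0.336 log2 with the stricter filter, and 0.166 to 0.328 log2 over the left-out sets.

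For the unirradiated mutant against WT, 1 member (Xpc) passed with quantile normalization, the stricter filter or a threshold of 0.10, and leaving out a set gave 0 to 1. With day as a term 2 passed (Xpc and Rrp1), and 1 (Rrp1) without the random block, a setting chosen after seeing the data. Of all probe sets 6.98% passed with quantile normalization, 9.11% with the stricter filter and 4.46% without w1118 replicate 1. With day as a term 19.0% of all probe sets passed, and 14.3% without the random block. For the irradiated mutant both fits with a day term gave 2 (PolZ1 and Rrp1), where 17.4% and 13.7% of all probe sets passed. For yw against w1118, 2 members (Xpc and Xpac) passed with quantile normalization, with no filter, with no replicate block and at 0.10, and 1 (Xpac) passed with no variance trend. Of all probe sets 8.29% passed with quantile normalization, 12.5% with no filter, 11.8% with no block and 5.1% with no trend. The shares of all probe sets under 0.10 are not given here for any contrast.

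Uncalled values changed sign or moved widely as follows. With quantile normalization Ogg1 and Rrp1 were at 0.049 and 0.024 log2 in WT irradiation, and Xpac at 0.292 in the unirradiated mutant against WT. With a pseudocount of 1 Ogg1 was at 0.005 in WT. With day as a term, with or without the random block, hay was at -0.287 and Xpac at -0.28 in the irradiated mutant against WT, and the WT minus mutant difference of Rrp1 was 0.025. Over the left-out sets the WT change ran from -0.198 to 0.378 for Ogg1 and from -0.072 to 0.069 for Rrp1. The mutant change ran from -0.444 to 0.08 for PolZ1, -0.398 to 0.813 for Xpc, -0.872 to 0.468 for Ogg1 and -0.368 to 0.455 for Rrp1. The WT minus mutant difference ran from 0.077 to 1.289 for Xpc, from -0.471 to 0.868 for Ogg1 and from -0.474 to 0.349 for Rrp1. In the irradiated mutant against WT it ran from -0.264 to 0.092 for hay, from -1.001 to -0.279 for Rrp1 and from -0.36 to 0.582 for Xpac. In the unirradiated mutant against WT, Xpc ran from 0.741 to 2.066. The cause of these shifts was not tested.

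Each member has 1 probe set, so no other was tried, and there is no yw comparison without yw. A fit of the arrays of 1 genotype alone gives no WT minus mutant difference. The dim signals of Xpac and agt limit what these arrays can show of them.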
